A study of Mus musculus with 2 samples.

Results

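Examined were Mir21a, the 4 miR-29 genes (Mir29a, Mir29b-1, Mir29b-2 and Mir29c) and 2 genes of the miR-101 family (Mir101a and Mir101b). These miRNA families are known from work on tissue fibrosis. These 7 genes were taken by symbol from the 1973 miRNA genes of the count tables, with identifiers matched to GENCODE M21. They were measured by small RNA sequencing of hearts from B6NCrl mouse embryos of both sexes at embryonic day 16.5, with no treatment and no engineered allele in the labels. The 2 libraries form a single group. The labels give 41 embryos for the pool of replicate 2. For replicate 1 they give no number, and calling it a pool below is an assumption from its mixed-sex label. With no second condition, the comparisons possible were between genes within a library and between the 2 pools.

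A miRNA is cut from a hairpin transcript and guides a silencing complex to messenger RNAs that pair with its seed, the bases near its 5′ end. miR-21 is carried in many cell types and is abundant in cardiac fibroblasts, where it is known from mouse work as an inducer of survival signalling after pressure overload. The miR-29 family pairs with messenger RNAs of collagens, fibrillin and elastin, and is known as a brake on matrix production that falls beside an infarct in the mouse heart. miR-101 is known to repress Fos in rat cardiac fibroblasts and the histone methyltransferase gene Ezh2. None of these targets was measured here.

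The mature sequences below, from RefSeq on build GRCm38.p6, are those of the arm for which each gene is known, and are shown because their likeness decides which reads can be given to which gene. Capitals mark the seed, bases 2 to 8 from the 5′ end.
miR-21a-5p: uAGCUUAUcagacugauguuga
miR-29a-3p: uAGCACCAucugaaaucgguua
miR-29b-3p: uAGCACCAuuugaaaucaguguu
miR-29c-3p: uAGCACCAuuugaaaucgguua
miR-101a-3p: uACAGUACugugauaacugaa
miR-101b-3p: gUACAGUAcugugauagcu
The 3 miR-29 sequences share the seed AGCACCA. Between miR-29a-3p and miR-29c-3p there was 1 difference in 22 bases, C10U, with miR-29a-3p as the reference and positions counted from its 5′ end. From miR-29c-3p to miR-29b-3p there were 3 differences, G18A, U21G and A22U. miR-101b-3p is annotated to start 1 base before miR-101a-3p, so the seed of miR-101a-3p lies at its bases 3 to 9. Aligned on that shared stretch, the 2 miR-101 sequences had 1 difference in 18 bases, A16G counted on miR-101a-3p.

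Mir29b-1 and Mir29b-2 give the same mature miR-29b-3p. Their hairpins are printed with the longest stretch they share in capitals, 25 bases that hold all of miR-29b-3p.
Mir29b-1 hairpin: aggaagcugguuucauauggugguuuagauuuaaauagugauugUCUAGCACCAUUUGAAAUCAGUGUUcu
Mir29b-2 hairpin: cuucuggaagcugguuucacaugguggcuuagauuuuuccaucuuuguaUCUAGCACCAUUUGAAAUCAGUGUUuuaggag
A read of miR-29b-3p matches both genes, and the tables give reads with several matches to no gene. The other arms, of which 1 lies at each gene, were found in no other annotated miRNA hairpin.
miR-29b-1-5p: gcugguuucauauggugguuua
miR-29b-2-5p: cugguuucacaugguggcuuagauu
The lead arms of Mir21a, Mir29a, Mir29c, Mir101a and Mir101b each occurred in 1 miRNA hairpin of the annotation. A 19-base stretch of the Mir101a hairpin is also the whole annotated mature sequence of Mir101c on chromosome 9. That gene was not found by symbol in the count tables. Reads of that stretch alone may be missing from Mir101a. Mir21b shared at most 13 bases with Mir21a and had 1 and 0 counts in replicates 1 and 2. Mir21c shared 15 bases, seed included, and had 0 counts in both, which allows up to 0.463 counts in 1000000 in replicate 1 and 0.514 in replicate 2.

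Sense counts over all listed genes came to 6473482 in replicate 1 and 5841568 in replicate 2. Levels are given as CPM, counts per 1000000 of these totals, with the mean ± SD over the 2 libraries (n = 2). Intervals are 95% Wilson intervals of the share of counts and, like the limits for a count of 0, cover counting error only, since PCR copies are not independent molecules. A gene was called detected with at least 10 counts in each library, which 365 genes were. Markers of the labelled tissue were present: all 3 genes of the cardiomyocyte list were detected and held 6.74% ± 0.041 of counts, led by Mir208b at 58261 ± 1172 CPM and Mir208a at 6556 ± 746 CPM. Other heart cell lists held both high and low genes. In the fibroblast and smooth muscle list Mir143 stood at 96423 ± 348 CPM, Mir214 at 2232 ± 318 CPM and Mir145a at 1288 ± 182 CPM. Mir199b stood at 413 ± 41.5 CPM and Mir199a-2 at 40.7 ± 0.542 CPM, and Mir199a-1, with 6 and 17 counts, was undetected. Mir199a-1 and Mir199a-2 are gene copies, and reads that match both are counted at neither. Any reads that Mir199b shares with them are likewise missing from its level. In the endothelial list Mir126a stood at 85049 ± 1170 CPM, Mir221 at 84.2 ± 21.2 CPM and Mir222 at 34.1 ± 0.869 CPM. Blood cell miRNAs were present, with Mir451a at 1511 ± 209 CPM among erythroid genes and Mir223 at 402 ± 3.79 CPM among leukocyte genes. The 5 listed neural genes were all undetected, with at most 16 counts in a library, for Mir9-3, but they are copies with like mature sequences whose shared reads are not counted, so this is no check of neural tissue. In such whole-heart RNA, fewer cells of a type and less of a miRNA per cell cannot be told apart.

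Mir21a was the most abundant of the 7 genes. It lies at chr11:86584067-86584158 on the minus strand (mm10) and overlaps an exon of Vmp1, the gene of a membrane protein of autophagy. Its counts were 91054 in replicate 1 and 83131 in replicate 2, or 14066 CPM (interval 13975 to 14157) and 14231 CPM (14135 to 14327). The libraries were 0.826% of the mean apart by SD, at 14148 ± 117 CPM. Mir21a stood at rank 17 of the 365 detected genes and held 89.6% ± 0.297 of all counts of the 7 genes, which together made up 1.58% ± 0.018 of sense counts.

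Mir101a and Mir101b were both detected, and Mir101b was the higher in each library. Mir101b lies at chr19:29135279-29135375 on the plus strand, in an intron of Rcl1, a ribosomal RNA processing gene. It had 7584 and 7067 counts, or 1172 and 1210 CPM (1191 ± 27.0 CPM, rank 77). Mir101a, at chr4:101346945-101347027 on the minus strand, overlaps an exon of the non-coding gene E130102H24Rik. It had 942 and 767 counts, or 146 and 131 CPM (138 ± 10.1 CPM, rank 166). The 2 genes together held 0.133% ± 0.0017 of sense counts, of which Mir101b made up 89.6% ± 0.889. Any reads of Mir101a that also match Mir101c are missing from these values.

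By counted reads, which leave out miR-29b-3p, the miR-29 genes summed to less than the other 2 families, and nearly all of their counts fell on Mir29a and Mir29c. Mir29a, at chr6:31062660-31062747 on the minus strand and inside no annotated host, had 1425 and 1671 counts. These were 220.1 CPM in replicate 1 (interval 209 to 232) and 286 CPM in replicate 2 (273 to 300.1), or 253 ± 46.6 CPM at rank 134. The 2 intervals did not overlap, and replicate 2 was the higher. Mir29c, at chr1:195037547-195037634 on the plus strand, overlaps an exon of the non-coding gene A330023F24Rik. It had 403 and 391 counts, or 62.3 and 66.9 CPM (64.6 ± 3.31 CPM, rank 208).

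The miR-29b genes had few counts. Mir29b-1, at chr6:31063023-31063093 on the minus strand, lies 275 bases from Mir29a and is its cluster partner. It had 23 and 14 counts, or 3.55 and 2.40 CPM (2.97 ± 0.818 CPM, rank 336). Mir29b-2, at chr1:195037040-195037120 on the plus strand, lies 426 bases from Mir29c in the same non-coding gene. It had 8 and 7 counts, or 1.24 and 1.20 CPM, and was the only one of the 7 genes below the detection limit. For both genes the M21 annotation carries a later version of the identifier than the tables, so the interval counted may differ from the coordinates given.

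The 4 miR-29 genes together held 0.0322% ± 0.0049 of sense counts, with Mir29a at 78.4% ± 2.52 and Mir29c at 20.2% ± 2.06 of the family. Mir29b-1 made up 0.955% ± 0.40 and Mir29b-2 0.383% ± 0.067. Because reads of miR-29b-3p match both hairpins printed above, these values are not the level of miR-29b. Reads matching several places numbered 4482590 in replicate 1 and 4105896 in replicate 2, which is 2411 and 1971 for each counted miR-29 read, and how many of them are miR-29b was not analysed here. The counts of the family are therefore a lower bound. Reads with several matches are missing from the total as well, so the direction in which they would move the share is not known. Shorter or mismatched reads could also match 2 genes between Mir29a and Mir29c, whose mature sequences differ at 1 base, between Mir29c and Mir29b-1, whose hairpins share 22 bases, and between Mir101a and Mir101b, which share 20. How the reads were aligned was not given in the sources used here.

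No read was counted on the opposite strand at any of the 7 genes in either library. This includes Mir29b-2 and Mir29c, which lie on the other strand from the protein-coding gene Cd46. Sense reads from an exon of Vmp1, A330023F24Rik or E130102H24Rik would be counted at the miRNA inside it, and their part was not tested. Mir29b-1 partly overlaps the gene Gm27019 on the same strand, and the part of reads from Gm27019 in its few counts was not tested. The tables give 1 count per gene, so the 2 arms of a hairpin could not be separated.

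**Figure D1:**
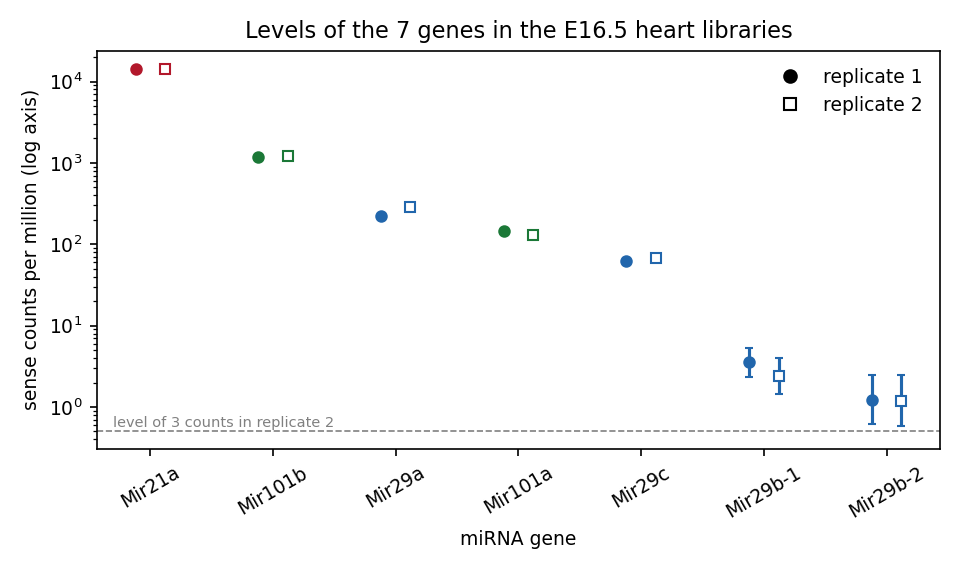
Level of each gene in CPM (log axis), with replicate 1 as filled circles, replicate 2 as open squares and 95% Wilson intervals as bars, which are smaller than the symbols for the 5 highest genes. Levels run from 14148 CPM for Mir21a to 1.22 CPM for Mir29b-2, and the dashed line marks the level of 3 counts in replicate 2.

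The order of levels was Mir21a, Mir101b, Mir29a, Mir101a, Mir29c, Mir29b-1 and Mir29b-2. For every pair of neighbours in this order both libraries of the higher gene lay above both of the lower. The steps between means were 11.9-fold from Mir21a to Mir101b, 4.70-fold to Mir29a, 1.83-fold to Mir101a, 2.14-fold to Mir29c and 21.7-fold to Mir29b-1. Between Mir29b-1 and Mir29b-2 the intervals overlapped within each library (2.37 to 5.33 against 0.626 to 2.44 CPM in replicate 1), and their order rests on 23 against 8 counts in replicate 1 and 14 against 7 in replicate 2, with the shared miR-29b-3p reads in neither. The 6 detected genes had a median of 195.7 CPM, against 107.6 CPM for all detected genes. These are read counts of different short RNAs, and whether all were captured with equal efficiency was not tested.

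**Figure D2:**
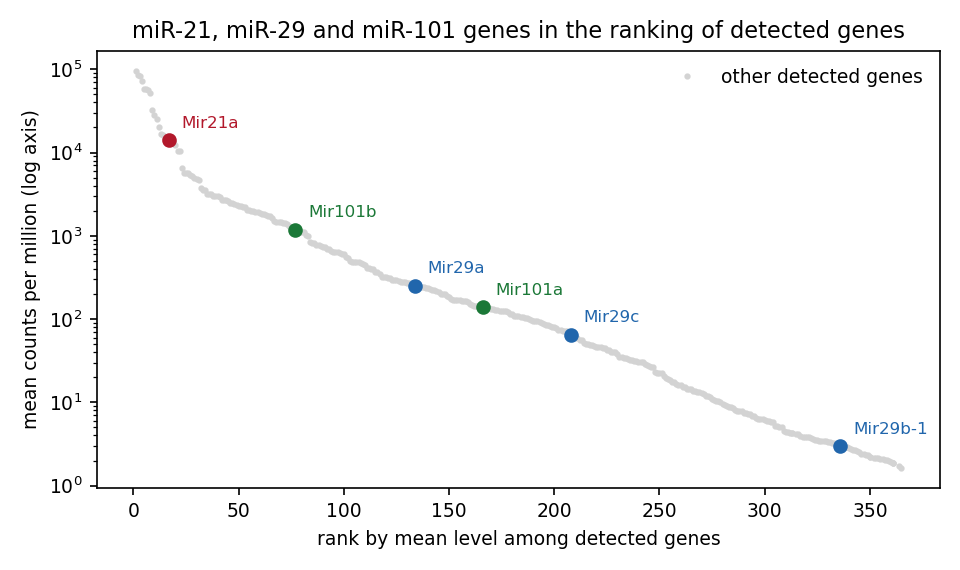
Mean level in CPM (log axis) against rank for the 365 detected miRNA genes, with the 6 detected genes of the miR-21 (red), miR-29 (blue) and miR-101 (green) families marked. They are spread along the ranking, from rank 17 for Mir21a to rank 336 for Mir29b-1.

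Ratios of 2 genes within a library do not depend on its total. Of the 6 ratios planned, 4 had 10 or more counts of each gene in both libraries, and both ratios over Mir29b-2 did not. Mir29a exceeded Mir29c, the family member of the other cluster, by 3.54 times in replicate 1 and 4.27 times in replicate 2 (log2 ratio 1.96 ± 0.19). On that scale the exact 95% intervals, 1.66 to 1.99 and 1.94 to 2.26, overlapped. Reads that match both through the single difference in their mature sequences, if any, are missing from this ratio. Mir101b exceeded Mir101a 8.05-fold and 9.21-fold (log2 ratio 3.11 ± 0.14), with intervals of 2.91 to 3.11 and 3.10 to 3.31 that overlapped narrowly. Reads that also match Mir101c, if any, are missing from Mir101a and so from this ratio. Within the cluster on chromosome 6, Mir29a exceeded its partner Mir29b-1 62.0-fold and 119-fold (log2 ratio 6.43 ± 0.67). This ratio carries the missing miR-29b-3p reads and says nothing on how the cluster transcript is processed.

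Mir21a exceeded Mir29a by 63.9 times in replicate 1 and 49.7 times in replicate 2. The log2 ratio was 5.82 ± 0.26, with exact intervals of 5.92 to 6.07 and 5.57 to 5.71. Here the intervals did not overlap, and counting error alone does not cover the gap between the pools. Mir21a was far above Mir29a in each.

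**Figure D3:**
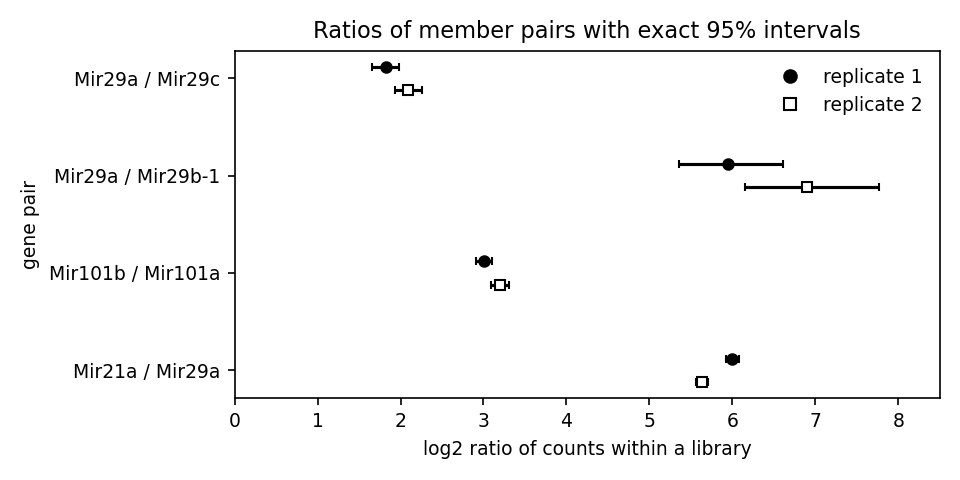
Log2 ratio of the counts of 2 genes within a library, with replicate 1 as filled circles, replicate 2 as open squares and exact 95% Clopper-Pearson intervals as bars. The intervals of the 2 libraries overlap for every pair but Mir21a over Mir29a, at 5.998 in replicate 1 and 5.637 in replicate 2.

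Each detected gene was then compared between the pools by an exact binomial test of its counts (two-sided), with p-values adjusted over all 365 genes (Benjamini-Hochberg). The test rests on counting error and compares these libraries, not conditions. When a call needed both an adjusted p under 0.05 and a 2-fold or larger difference, 0 of the 6 detected genes passed, where 12 of all 365 genes did (3.29%). At an unadjusted p under 0.05 and without a minimum fold, 3 of the 6 passed, and 4 with DESeq2 size factors, where 52.1% of all detected genes did in the main comparison. With library totals or DESeq2 size factors as the scaling, 0 also passed the 2-fold rule.

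Without a minimum fold 3 of the 6 genes passed, all higher in replicate 2, where 46.3% of all detected genes passed in either direction, 26.0% as higher and 20.3% as lower in replicate 2. The largest of the 3 differences was that of Mir29a, which was 1.32-fold higher in replicate 2 (log2 ratio 0.40, exact 95% interval 0.30 to 0.51, adjusted p = 4.83e-14 by the exact binomial test). Its absolute log2 ratio was the 104th largest of 365. Mir21a was 1.03-fold higher (log2 ratio 0.042, interval 0.029 to 0.056, exact adjusted p = 4.56e-09), and its difference ranked 309th of 365 in size. With library totals its log2 ratio was 0.017 (exact adjusted p = 0.0333) and with DESeq2 size factors 0.025 (0.00105), so the interval does not cover the choice of scaling. Mir101b was 1.05-fold higher (log2 ratio 0.072, exact adjusted p = 0.00679), and it no longer passed with library totals (exact adjusted p = 0.103) or DESeq2 size factors (0.0505).

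The 3 other detected genes did not pass. Mir29c had a log2 ratio of 0.13 (interval -0.074 to 0.33, exact adjusted p = 0.326) and Mir101a of -0.12 (interval -0.26 to 0.016, exact adjusted p = 0.146). Mir29b-1, with 23 and 14 counts, had a log2 ratio of -0.52 and an interval from -1.61 to 0.48, which does not exclude a 2-fold difference. The median absolute log2 ratio was 0.13 for the 6 genes and 0.21 for all detected genes. Summed marker lists, for which no test was made, stood as follows in replicates 1 and 2. Of 6 leukocyte symbols 3 were found, all detected, and these went from 0.0586% to 0.0717% of counts. Mir155 and Mir150 were higher in replicate 2 and Mir223 did not pass the test. Mir142, Mir142a and Mir146a were not found by symbol. A detected gene named Mir146, at 93.1 ± 17.0 CPM and outside this sum, was also higher in replicate 2 (log2 ratio 0.40). Of 3 erythroid symbols 2 were found, both detected, and these went from 0.204% to 0.172%, with Mir451a lower. Mir486a was not found by symbol. A detected gene named Mir486, at 83.5 ± 3.42 CPM and outside this sum, had a log2 ratio of 0.11 and did not pass. The cardiomyocyte list, mostly Mir208b, held 6.77% and 6.71%, with Mir208a higher (log2 ratio 0.26), Mir208b lower (-0.016) and Mir499 not past the test. Of 4 endothelial symbols 3 were found, without Mir126b, and all 3 were detected. They held 8.598% and 8.44%, mostly Mir126a. Mir221 was higher (log2 ratio 0.54) and the other 2 genes did not pass the test. The fibroblast and smooth muscle list (5 of 6), mostly Mir143, held 10.02% and 10.06%. In the last list 3 genes were higher in replicate 2, 1 was lower and 1 did not pass. Over all detected genes 26.0% were higher and 20.3% lower by this rule. No listed marker of these 5 lists was at 0. The part of cell makeup in the difference of Mir29a was not tested.

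**Figure D4:**
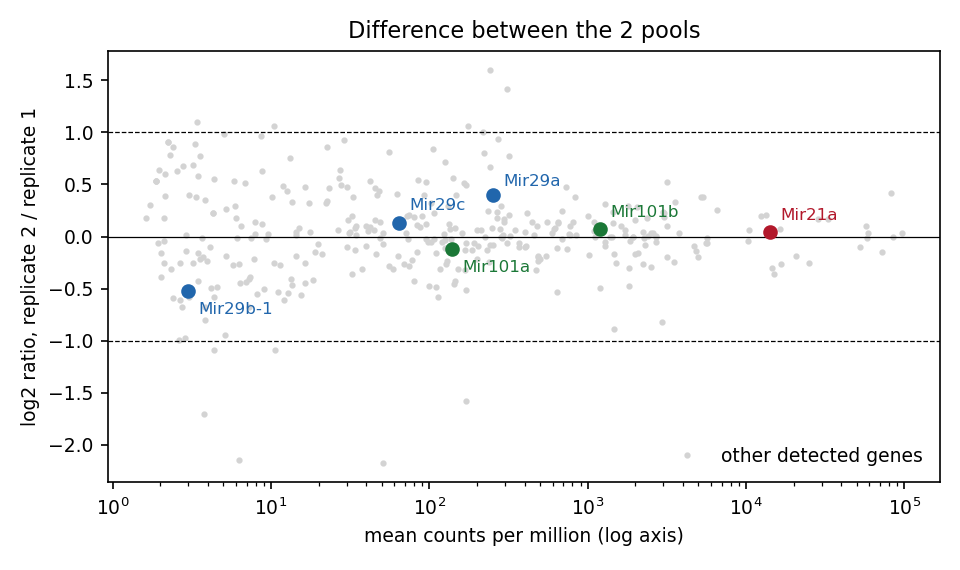
Log2 ratio of replicate 2 over replicate 1 (TMM-scaled counts with 0.5 added) against mean CPM (log axis) for the 365 detected genes, with the 6 detected genes of the 3 families coloured. All 6 lie between the dashed 2-fold lines, from -0.52 for Mir29b-1 to 0.40 for Mir29a.

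Other miRNAs reported in cardiac fibrosis gave a setting for these levels. Of 8 genes listed as profibrotic, all 8 were in the tables and detected, with a median of 408 CPM. The highest were Mir208a, the miRNA of a Myh6 intron that is needed for stress-induced remodelling in the mouse, at 6556 ± 746 CPM (counts of 39025 and 41382), then Mir125b-2 at 481 ± 17.3 CPM and Mir433, of the imprinted Dlk1-Dio3 region, at 470.5 ± 80.2 CPM. Of 16 symbols listed as antifibrotic, of which Mir18 and Mir18a name the same gene, 12 were found by symbol. Of these 11 were detected, with a median of 6.02 CPM. The highest were Mir18, of the miR-17-92 cluster, at 1728 ± 31.6 CPM, Mir24-2 at 348 ± 6.66 CPM and Mir30c-1, whose product pairs with the connective tissue growth factor message, at 95.7 ± 23.3 CPM. Mir133a-2, with 0 and 3 counts, was not detected. Mir24-1, Mir378a and Mir1a-2 were not found by symbol, which does not show that the tables lack them. Several of these miRNAs, such as miR-1a, miR-133a, miR-19b, miR-24, miR-26a, miR-30c and miR-125b, are made from more than 1 gene copy, so reads that match several copies are missing as for miR-29b, and the 2 medians do not compare the lists.

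The places that follow compare counted reads only, and most of these other genes are such copies. Mir21a lay above all 20 of them, and Mir101b above 18. Mir29a had 8 of them above it, Mir101a 10 and Mir29c 11. Mir29b-1 had 16 above it and Mir29b-2 19. Between the pools, 5 of the 8 profibrotic genes were higher in replicate 2 without a minimum fold, 1 was lower and 2 did not pass, where 26.0% of all detected genes were higher and 20.3% lower. Of the 11 detected antifibrotic genes 4 were higher, 0 were lower and 7 did not pass. With the 2-fold minimum 0 genes of either list passed, against 3.29% of all detected genes. The median log2 ratios were 0.16 and 0.17, against 0.018 for all detected genes and 0.057 for the 6 detected genes above.

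**Figure D5:**
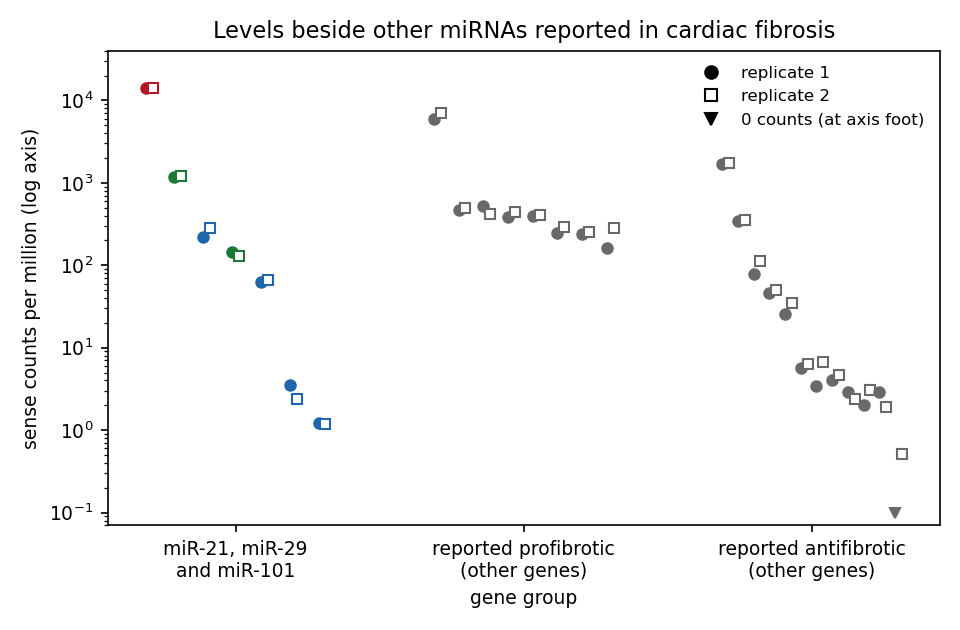
Level in CPM (log axis) of the 7 genes, coloured by family, with replicate 1 as filled circles and replicate 2 as open squares. Beside them are the 8 other genes reported as profibrotic and the 12 reported as antifibrotic that were found by symbol. By counted reads Mir21a lies above all 20 other genes in both libraries, and the triangle marks the count of 0 for Mir133a-2 in replicate 1.

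The detected genes closest in level were found by the distance of log2(CPM + 1) over the 2 libraries. This is a likeness in level over 2 samples of a single group and holds no pattern across conditions. Mir21a was closest to Mir30a (13481 ± 43.1 CPM, distance 0.099) and Mir17 (13389 ± 1189 CPM, 0.165). Mir101b was closest to Mir1983 (1106 ± 15.4 CPM, 0.159) and Mir181a-1 (1101 ± 59.6 CPM, 0.168), and Mir101a to Mir598 (135 ± 8.48 CPM, 0.056) and Mir31 (138 ± 3.32 CPM, 0.070). Mir29a stood nearest to Mir34a (268 ± 27.7 CPM, 0.176) and Mir16-2 (235.0 ± 24.7 CPM, 0.180). Mir29c stood nearest to Mir137 (71.1 ± 0.449 CPM, 0.204) and Mir345 (62.9 ± 11.8 CPM, 0.208).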

How the data were processed

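The 2 small RNA libraries of E16.5 mouse hearts were analysed. The deposited values are raw read counts per miRNA gene, made on mm10 with annotation M4, per the file lists that the authors deposited. Which aligner and counter they used is not given in the sources used here. Of 3 count columns, the first is the sum of the others, which hold 1 strand each; the larger of these by gene total was used as sense. The 4 lines that name no gene stayed out of the totals: reads matching several places were 29.5% and 31.9% of reads, unmapped reads 22.4% and 17.2%, reads outside genes 2.99% and 2.66%, and ambiguous reads 0. Depth was 15207730 and 12885555 reads, and p-values measure counting error between these libraries.

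GENCODE M21 matched 1894 of 1973 identifiers, and mature and hairpin sequences of all 7 genes were in RefSeq. With a single group, edgeR's quasi-likelihood test had no contrast. Counts of genes with at least 10 counts in each library were scaled by TMM (edgeR 4.0.16, R 4.3.3) and compared by a two-sided exact binomial test (scipy 1.17.1, Python 3.11.15). The test was run on simulated counts with counting error alone and the true depth given. That run checks neither the scaling nor error rates where pools vary beyond counting error. Log2 ratios had 0.5 added to each count. Alternatives were library totals, DESeq2 1.42.0 size factors, no filter, 50 counts, reads of either strand, 5 added counts, totals without Mir143, and each replicate left out in turn.

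The members, lists, pairs and tests were chosen with earlier results of these data known. Named were the 7 genes, the 2 detected genes nearest in level to each of 5 of them, genes sharing a 20-base sequence, locus or seed, the 3 highest and all undetected genes of the 2 fibrosis lists, and the 2 highest of each marker list. Mir101c, Mir21b, Mir150, Mir146 and Mir486 were added after values were seen. Other markers named outside the 2 highest of their list were Mir499, Mir222, Mir145a, Mir199b, Mir199a-1, Mir199a-2, Mir124a-2, Mir124a-3 and Mir9-2. The liver list (Mir122) held 0.0161% of counts. Markers not described in the results were Mir144 (368 ± 16.3 CPM) and the neural Mir124a-1 and Mir124a-2, each with 1 and 0 counts. The neural Mir124a-3 and Mir9-2 each had 0 counts in both libraries.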

Additional observations from a re-analysis of the deposited data

How the results depend on the processing

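The count of genes past the 2-fold test was 12 and lay at 11 with library totals, DESeq2 size factors or reads of either strand, but rose to 21 with no count filter and fell to 5 with a minimum of 50 counts. Both alternatives change which genes are tested, and 0 of the miR-21, miR-29 and miR-101 genes passed under any of them. Without a minimum fold the count was 169, and it ran from 165 to 180. The share of miR-21 was 1.41% of counts, 1.57% with Mir143 left out of the total and 1.33% with reads of either strand. That of miR-101 was 0.133%, then 0.147% and 0.125%; both shifts follow from the changed total. Leaving out each replicate gave 1.41% to 1.42% for miR-21, 0.0287% to 0.0357% for miR-29 and 0.132% to 0.134% for miR-101. It gave log2 ratios of 1.82 to 2.10 for Mir29a over Mir29c, 5.95 to 6.90 for Mir29a over Mir29b-1, 3.01 to 3.204 for Mir101b over Mir101a and 5.637 to 5.998 for Mir21a over Mir29a. With 1 library left, the test between pools could not be run. No direction reversed. No paired analysis was possible because there is a single group. Depth limits Mir29b-1 and Mir29b-2, with 7 to 23 counts per library, and the reads that match several places limit all statements on miR-29b.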

Other observations

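Detection was also counted over all listed genes by whether their mature arms are shared. Of the listed genes with RefSeq mature sequences, 813 had every annotated arm in 1 hairpin of the annotation, and 287 of these were detected (35.3%). In 47 genes every arm lay in 2 or more hairpins, and 6 of them were detected (12.8%), at a median of 66.1 CPM. Mir29b-1 and Mir29b-2 belong to neither class, since 1 arm of each is shared and the other is not. Of the 103 genes with at least 1 shared arm, 43 were detected (41.7%), at a median of 48.4 CPM against 133 CPM for detected genes with unique arms. These are counts over genes of different origin, carry no test, and the part of shared reads in them was not tested.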
